A study of Bos taurus with 42 samples.

Results

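Between the dominant piRNA loci of the bovine genome and the many loci that give only a handful of reads lies a middle class of small clusters. They are the regions that 10 to 49 rows of the deposited small RNA table name as their first hit. Grouping the 9474 piRNA rows of the table by the coordinates of that first hit gave 616 clusters, and 84 of them, with 1887 rows, fell in this class. Of the other clusters, 37 had 50 or more rows (6144 rows) and 495 had fewer than 10 rows (1443 rows). A row of the table is an annotation: it names up to 3 clusters that a small RNA matches and, for many rows, 1 mismatched base. The class counts annotated rows, and a row need not be 1 sequence. Every row of the table has reads in NT 2-cell replicate 4, so the number of rows in a cluster depends on what was detected there as well as on the annotation.

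piRNAs are small RNAs that load onto PIWI proteins, the germ line branch of the Argonaute family. Their precursors are long transcripts of genomic clusters, and the loaded complexes silence transposons by cleaving their transcripts or by directing chromatin marks. Bovine oocytes carry abundant piRNAs, which an embryo inherits with the egg's cytoplasm, whereas somatic cells such as fibroblasts make few or none.

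The study sequenced RNA under 200 nucleotides from 42 bovine libraries in 12 groups. The groups outside embryo culture were fibroblasts (3 libraries), a primary culture from the ear of 1 Brahma Spanish bull cross that also served as nuclear donor cells, and oocytes matured in vitro to metaphase II (3 libraries). Embryos came in pools of 20. Somatic cell nuclear transfer (NT) embryos were made by fusing a serum-starved fibroblast with an enucleated oocyte, followed by activation, and in vitro fertilised (IVF) embryos were made with semen of 1 Holstein bull, so the 2 kinds of embryo differ in nuclear genome as well as in method. The pools were taken at day 2 (2-cell: 4 NT and 4 IVF), day 3 (8-cell: 4 NT and 3 IVF), day 6 (morula: 3 NT and 4 IVF) and day 8 (blastocyst: 4 NT and 3 IVF). All embryos were cultured on bovine cumulus cells. Cells derived from blastocysts gave 3 NT and 4 IVF libraries. The labels do not say whether the libraries of a group came from separate cultures, donors or collection days, so p-values measure only the spread between these libraries.

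The 84 clusters lay on 22 chromosomes, with 12 on chromosome 16, 10 each on chromosomes 15 and 3, 9 on chromosome 2 and 6 on chromosome 10. Coordinates are as the table gives them; the submitters' processing notes name the builds bosTau8 and UMD3.1. The clusters were 5019 to 108973 bp long (median 8917 bp), with chr10:80794003-80799021 the shortest and chr24:43000041-43109013 the longest. Within 1 Mb of another member, 37 of them formed 11 runs. The longest runs, of 5 members each, were chr15:51303001-51450024 and chr16:71668130-71825018. No gene annotation of this build was used here, so the clusters are given by position alone. The table holds no small RNA sequence, and none is shown.

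The limits of 10 and 49 rows cut through a continuum. Just inside the upper limit, chr15:51323021-51341965 and chr16:44978215-44986960 had 48 rows each and averaged 0.0959% and 0.277% of the piRNA reads in oocytes. Just outside it, chr6:93789044-93860889 had 51 rows and 0.0692%. At the lower limit, 6 members had exactly 10 rows, among them chr17:5210003-5218933 and chr3:29368023-29383996, and chr12:51075028-51083803, with 9 rows, fell outside.

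These clusters differed from larger and smaller ones in how few of their reads belonged to 1 place. Over all libraries they held 854276 reads, and 83.0% of these came from rows that also named a cluster at another locus, against 19.1% for the clusters with 50 or more rows and 29.8% for those with fewer than 10. By rows, not reads, they resembled the large clusters: 83.6% of their rows named another locus, against 82.4% and 45.9%. Rows that also named one of the large clusters carried 39.6% of the reads. For 13.6% of the reads, from 189 rows, the first hit had a mismatch and another named cluster had none. That share was 0.612% in the large clusters and 1.08% in the smallest. A mismatch to the first hit was annotated for 64.7% of the reads, against 15.3% in the large and 68.1% in the smallest clusters, and 64.0% of the 1399 mismatched rows were transitions. The first hit is in large part a matter of order: among the 1577 rows that named more than 1 locus, the chromosome of the first hit sorted first alphabetically in 87.9%. A value of one of these clusters is thus the sum over the rows listed under it, and most of that sum cannot be assigned to it rather than to its partners.

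The partners recur. The large cluster chr17:62734087-62862016 was named beside 32 of the 84 clusters, in rows that held 13.9% of their reads. Another large cluster, chr23:13905000-14137856, was named beside 42 of them (8.98% of their reads), and chr6:110178897-110333441 beside 46 (7.13%). A cluster with only 5 first-hit rows, chr1:150072006-150087016, was named in 9.65% of the reads. In addition, 55 of the 84 clusters overlapped another named cluster of different coordinates; none overlapped another member, and none overlapped a large cluster under its first-hit coordinates.

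Single members ranged from fully shared to nearly private. In 14 clusters more than 50% of the reads came from rows of 1 locus. At chr7:82824700-82834833 that share was 94.4% and at chr8:81513234-81527875 it was 93.9%, and these were the only 2 above 90%. In 9 clusters it was 0. The most displaced member was chr10:80949230-80958786, where 71.0% of the reads fitted another cluster without a mismatch, 99.6% came from rows that also named a large cluster, and 0.105% matched without a mismatch. The leading row held a median of 39.4% of its cluster's reads, and 14.6% to 91.0% across the 84.

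**Figure D1:**
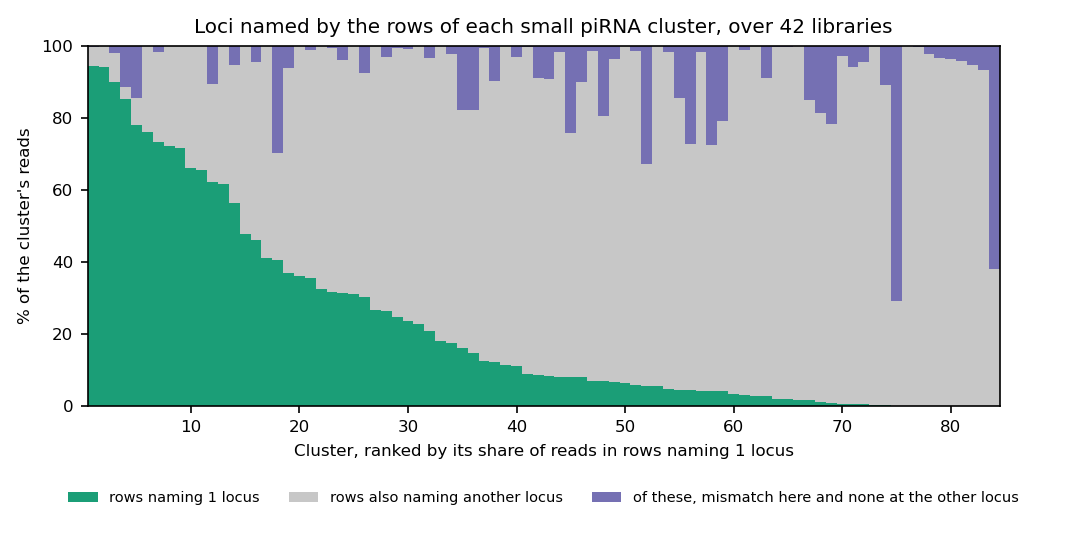
Reads of each of the 84 clusters over 42 libraries, in percent of the cluster's reads (y axis), split into rows naming 1 locus, rows also naming another locus, and, of these, rows with a mismatch here and none at the other locus; clusters are ranked on the x axis by the first share. The first 2 clusters exceed 90%, 14 exceed 50%, and the tallest bar of displaced reads is chr10:80949230-80958786 at 71.0%.

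Some of the leading rows name the same partners. The leading row of chr2:79172175-79177946 carried A4G and 74.8% of its reads, and that of chr16:71749118-71766784 carried A4G and 51.0%; both also named chr1:150072006-150087016, and the second named chr2:79172175-79177946 itself. The leading row of chr23:13852489-13904005 (T19C, 86.0% of its reads) named chr3:29494258-29501704, as did the leading rows of chr2:92986409-92991699 (T9C, 48.3%) and chr2:93033110-93043754 (no mismatch, 79.2%). In these tokens the position and both bases are as the table writes them, with the base before its arrow given first. Members linked in this way are not independent observations.

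The libraries differed widely in depth and in their piRNA content. Listed reads, recovered as whole reads from the deposited values, ran from 25119 to 3081186 per library (median 608572). Rows of piRNA clusters took 89.9% of listed reads in oocytes, 20.8% in NT and 27.5% in IVF blastocysts, 0.0750% in NT and 0.168% in IVF blastocyst-derived cells, and 0.561% in fibroblasts. A pair of IVF morula libraries stood apart. IVF morula 1 had 784359 listed reads but only 1125 piRNA reads (0.143%), 41 of them in the 84 clusters, and a summed level of 5 fibroblast-associated miRNAs of 62080 per 1000000 listed reads, against 4671, 2190 and 4072 in IVF morulae 2, 3 and 4, 72646 to 191942 in the blastocyst-derived cells and 1354 to 82449 in fibroblasts. Of that list of 6 markers, miR-199a-5p had no row. Most of the sum in IVF morula 1 was miR-21-5p (53034). That miRNA is also on the list of cumulus miRNAs, whose sum was 53052 in IVF morula 1 against 4468, 1831 and 3549 in IVF morulae 2, 3 and 4. Nearly all of the cumulus sum in IVF morula 1 was thus miR-21-5p. For miR-202, also on that list, the highest value of the IVF morulae, 87.9, was in another library. A listed marker, miR-10b, was lower in fibroblasts (0 to 184) than in oocytes (290 to 336), while miR-199a-3p, miR-214 and miR-145 were higher in fibroblasts. The 3 pluripotency or trophoblast miRNAs with rows, of 7 on that list, summed to 9157 in IVF morula 1, against 162, 0 and 200 in IVF morulae 2, 3 and 4 and 171 to 15418 in the blastocyst-derived cells. IVF morula 3 was the shallowest library, with 25119 listed reads, 3696 piRNA reads and 241 reads in the 84 clusters. Results that involve these libraries are given with and without them. They also enter the common estimate of spread in every other comparison.

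Through the cleavage stages the 84 clusters held a steady part of the piRNA pool. Their summed share of piRNA reads was 6.78% ± 0.431 in oocytes (SD, n = 3), 6.41% ± 0.196 in NT and 6.88% ± 0.0983 in IVF 2-cell embryos (n = 4 each), and 6.76% ± 0.220 in NT (n = 4) and 6.46% ± 0.472 in IVF 8-cell embryos (n = 3). It was 5.97% ± 0.437 in NT morulae (n = 3), while the 4 IVF morulae had 3.64%, 6.74%, 6.52% and 5.71%. NT blastocysts had 5.82% ± 0.230 (n = 4) and IVF blastocysts 6.09% ± 0.654 (n = 3). At the 2-cell stage all 4 NT libraries lay below all 4 IVF libraries. All other NT and IVF groups of embryos overlapped.

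The amount behind that share fell steeply. Of all listed reads, the clusters took 6.10% in oocytes, 5.70% in NT and 5.85% in IVF 2-cell embryos, 5.67% in NT and 4.72% in IVF 8-cell embryos, 3.80% in NT morulae, and 1.22% ± 0.493 in NT and 1.70% ± 0.528 in IVF blastocysts. In IVF morulae 1, 2, 3 and 4 the share was 0.00523%, 5.42%, 0.959% and 4.25%, against 4.65%, 2.57% and 4.17% in NT morulae 2, 3 and 4, so that replicates 2 and 4 lie within or above the NT range and replicates 1 and 3 below it. In blastocyst-derived cells 0.00437% (NT) and 0.00720% (IVF) was left, and fibroblasts had 0.00819%. Every oocyte, 2-cell, 8-cell and NT morula library had reads in all 84 clusters. NT blastocysts had reads in 69 to 83 of them and IVF blastocysts in 73 to 82. The IVF morulae had reads in 6, 83, 14 and 84, and the low counts belong to replicates 1 and 3. In bulk pools such as these, fewer cells that carry piRNAs and less piRNA per cell cannot be told apart, and a rise of other small RNAs also lowers such a share.

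**Figure D2:**
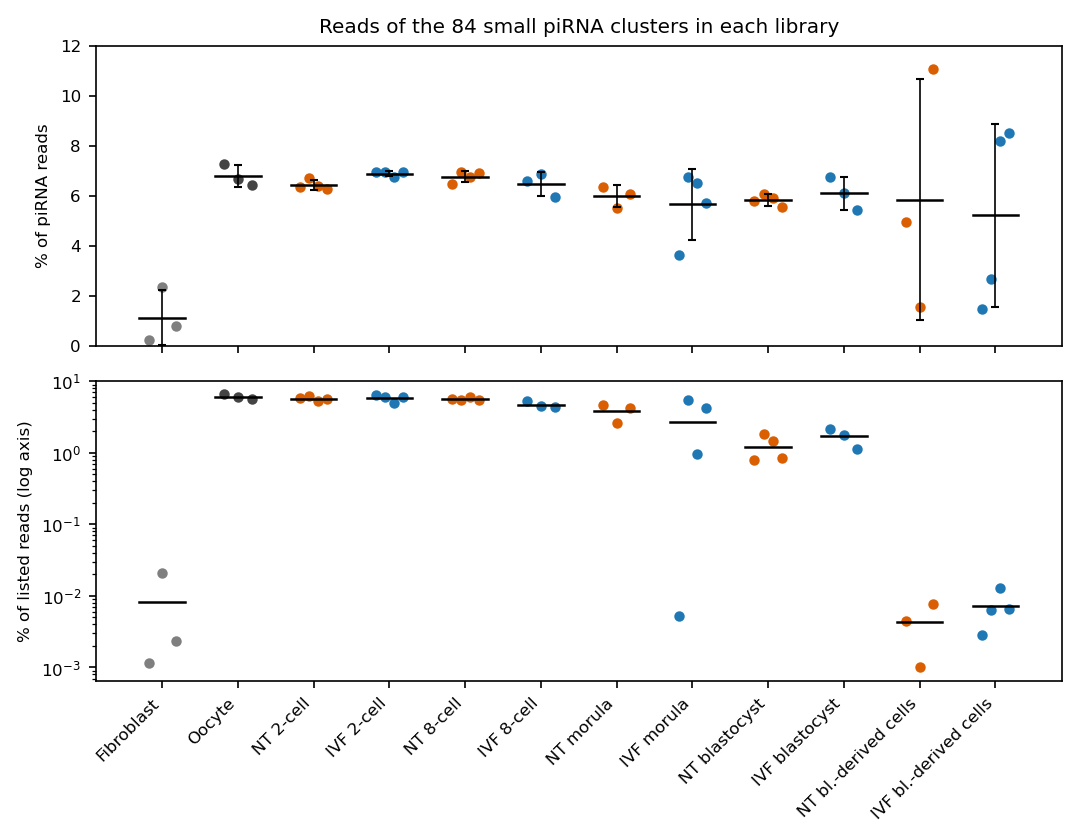
Reads of the 84 clusters in each of the 42 libraries (points) by group, as percent of piRNA reads (upper panel, with mean and SD bars) and as percent of listed reads on a log axis (lower panel, with means). In the upper panel oocytes and embryos lie close together except for IVF morula 1 at 3.64%; in the lower panel blastocysts lie below oocytes, and IVF morula 1, the blastocyst-derived cells and the fibroblasts lie far below all others.

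A short list of clusters made up most of the class. In oocytes the 10 most abundant members held 57.5% of the reads of all 84 clusters, while the median member had 0.0293% of the piRNA reads. The leader was chr3:55455007-55462962, with 0.784% of the piRNA reads on average. Its leading row, which also named chr9:23712000-23719387, carried 49.5% of its reads. A second row, with A25G and no other locus, carried 28.8%. Within the pool, in reads per 1000000 piRNA reads of the library (RPM), NT blastocysts had 5207, 6229, 5354 and 2294 RPM and IVF blastocysts 7936, 3511 and 5066, against 9968, 7835 and 5708 in oocytes. The 3 groups overlapped.

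Next in abundance after the first pair of the oocyte list, chr10:80949230-80958786, was the most abundant member in every embryo group except IVF morulae. It had 5843, 7158 and 6399 RPM in oocytes. NT morulae had 9858, 6618 and 9504, against 0, 8766, 1082 and 6233 in IVF morulae. NT blastocysts had 8450, 8407, 9904 and 6794, against 10239, 6080 and 7614 in IVF blastocysts. The values of oocytes and blastocysts overlapped.

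The second of the oocyte list, chr2:79172175-79177946, did not hold its place. It had 7300, 7287 and 6140 RPM in oocytes and 3514, 3453 and 3024 in NT morulae. NT blastocysts had 1553, 3319, 2149 and 2005, against 3405, 3460 and 2061 in IVF blastocysts. All 7 blastocyst libraries lay below all oocytes. The linked cluster chr16:71749118-71766784, the tenth in oocytes, was higher in blastocysts, with 2375, 2590, 2906 and 2962 in NT blastocysts and 2879, 3460 and 2652 in IVF blastocysts, against 1718, 1372 and 1305 in oocytes.

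The other members of the oocyte list were chr23:13852489-13904005, chr16:17125008-17132010, chr3:29111095-29146018, chr16:44978215-44986960, chr15:30091042-30102977 and chr11:5396001-5404270. Of these, chr3:29111095-29146018 was the steadiest, with 2626, 3162, 2850 and 2918 RPM in NT blastocysts and 3042, 2633 and 2987 in IVF blastocysts, against 3031, 2722 and 2570 in oocytes. The most reduced was chr11:5396001-5404270, with 274, 659, 308 and 401 in NT blastocysts and 150, 671 and 238 in IVF blastocysts, against 1297, 1758 and 2065 in oocytes.

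The first comparison asked whether NT and IVF embryos of the same stage differ in these clusters. It was made at 2 scales. The level scale is log2(normalised reads + 1), where normalised reads are the recovered reads divided by the authors' size factor. The within-pool scale is log2(RPM + 10), which asks whether a cluster moves apart from the piRNA pool. Both were tested with limma over all 372 clusters with at least 10 reads in at least 3 libraries, with Benjamini-Hochberg adjustment over the 372 and calls at an adjusted p under 0.05. All 84 members passed the filter on reads.

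At the 2-cell stage none of the 84 clusters was called at the level scale, where 0.269% of all clusters were called, and none within the pool, where 0% were. At either scale, 0 of the 84 had an unadjusted limma p under 0.05 and voom called 0. IVF morulae 1 and 3 raise the common spread behind these p-values. Without them 0 members were called at either scale, with 0.538% of all clusters called at the level scale and 0% within the pool. Then 0 members at the level scale and 1 within the pool had an unadjusted limma p under 0.05. The median difference of NT minus IVF was 0.39 on the level scale for the members and 0.41 for all clusters, and 0.07 for both within the pool. The largest difference of a member was at chr16:41319060-41324847, which averaged 1332 ± 844 normalised reads in NT and 699 ± 520 in IVF 2-cell embryos (SD, n = 4 each; log2 difference 0.93, SE 1.07).

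At the 8-cell stage none was called at the level scale or within the pool, with 0% of all clusters called at each, and at either scale 0 of the 84 had an unadjusted limma p under 0.05 and voom called 0. Without IVF morulae 1 and 3, again 0 members were called, with 0.269% of all clusters called at the level scale and 0% within the pool. The median level difference was 0.65 for the members and 0.56 for all clusters, and within the pool 0.10 and 0.03. The largest was at chr21:3105386-3112983, which averaged 104 ± 77.1 normalised reads in NT (n = 4) and 36.2 ± 5.76 in IVF 8-cell embryos (n = 3; log2 difference 1.16, SE 0.91). The groups overlapped.

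In morulae 50 of the 84 clusters were called higher in NT at the level scale, against 31.2% of all clusters called, and 37 were called higher within the pool, against 24.7%. These calls rest on IVF morulae 1 and 3. The largest member was chr3:29111095-29146018, with 1351, 777 and 1236 normalised reads in NT morulae and 0, 1684, 0 and 1574 in IVF morulae (log2 difference 4.76, SE 1.49; limma adjusted p = 0.0399). NT lies between the IVF values: both deep IVF morulae were above all NT morulae, and both others were at 0. The next members, chr16:17125008-17132010 and chr15:30091042-30102977, were also at 0 in IVF morulae 1 and 3, with log2 differences of 4.55 and 4.54. For chr16:17125008-17132010 the mean was 1054 normalised reads in NT and 1104 in IVF, so the difference of the means and the log2 difference had opposite signs.

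Without those libraries the calls went. The log2 differences became -0.58 for chr3:29111095-29146018, -0.91 for chr16:17125008-17132010 and -0.69 for chr15:30091042-30102977, none called, and the median over the 84 was -0.78, against -0.72 for all clusters. Leaving out IVF morula 1 alone or IVF morula 3 alone gave 0 calls at either scale. Leaving out NT morula 2 or NT morula 4 alone also gave 0 at either scale, and leaving out NT morula 3 gave 0 within the pool. Leaving out IVF morula 2 or 4, which leaves the libraries that stand apart in the majority, gave 67 and 68 calls within the pool. The calls among all clusters in these fits are not given here, so the counts show only how the calls depend on single libraries. Without both IVF morulae 1 and 3, a single member was called at the level scale, lower in NT, with 0.806% of all clusters called. This was chr16:41319060-41324847, with 34.5, 7.36 and 25.7 normalised reads in NT morulae against 196 and 123 in IVF morulae 2 and 4 (log2 difference -2.97, SE 0.79; limma adjusted p = 0.0465). It was named after its values were seen. The fit without these libraries compares 3 NT with 2 IVF morulae.

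In IVF morula 3 a single cluster held most of the members' reads. The cluster chr1:83567259-83573745 had 127 reads there, 34362 RPM, against 782 and 1003 in IVF morulae 2 and 4 and 0 in IVF morula 1. Those 127 reads were among the 241 that all 84 clusters had in that library. The run chr16:71668130-71825018 was also high there, with 1.49% of the piRNA reads, against 0.683% and 0.510% in IVF morulae 2 and 4 and 0 in IVF morula 1.

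In blastocysts none of the 84 was called at the level scale (0% of all clusters called; 1 member had an unadjusted limma p under 0.05), and none within the pool (1.08% of all called; 3 members had an unadjusted limma p under 0.05). At both scales voom called 0. The median level difference was -0.90 for the members and -0.58 for all clusters. In 13 members all 4 NT libraries lay below all 3 IVF libraries in normalised reads, as they did in 37 of all 372 clusters. Within the pool they did so in 3 members and 8 of all clusters. They lay above all IVF libraries there in 2 members and 6 of all clusters. The cluster chr1:83567259-83573745 was lower in this way at both scales, with 365, 373, 804 and 646 RPM in NT blastocysts against 1001, 1059 and 1140 in IVF blastocysts.

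Leaving IVF morulae 1 and 3 out of the fit, which changes the common spread but not these values, gave calls for 2 of the 84 clusters within the pool, both lower in NT, with 3.76% of all clusters called. They were chr1:83567259-83573745 (log2 difference -1.03, SE 0.27; limma adjusted p = 0.0259) and chr10:80794003-80799021 (-2.32, SE 0.61; limma adjusted p = 0.0259). The second had 0, 126, 46.7 and 0 RPM in NT blastocysts, from 0, 29, 5 and 0 reads, against 87.6, 297 and 97.5 in IVF blastocysts, from 7, 23 and 16 reads. The NT and IVF values overlapped.

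The next comparison asked what was left at day 8 of the oocyte's clusters. At the level scale the NT blastocysts had 83 of the 84 called lower than oocytes and none higher, and the IVF blastocysts 82 lower and none higher. The share called among all clusters was 87.4% for NT and 86.3% for IVF, so this fall was shared by most of the piRNA table. The median log2 difference was -5.66 in NT blastocysts (-4.99 over all clusters) and -4.81 in IVF blastocysts (-4.48). Both comparisons use the same 3 oocyte libraries. The size of the fall depends on the scaling: per 1000000 listed reads the median of all clusters was -1.61 in NT and -1.40 in IVF blastocysts, and that of the 84 was -2.29 and -1.93. On this scaling 64 of the 84 members were called lower in NT and 47 in IVF blastocysts, with 243 and 197 of all 372 clusters called. voom with TMM factors, which centre the libraries on their common clusters, put the median of all clusters at -0.34 in NT and -0.37 in IVF blastocysts. It called 2 and 1 of the 84 lower, with 31 and 18 of all 372 clusters called.

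In NT blastocysts chr16:74471291-74492916 had 0, 4.28, 3.95 and 0 normalised reads against 815, 470 and 563 in oocytes (log2 difference -8.05, SE 1.08; limma adjusted p = 1.9e-10). It was followed by chr16:41319060-41324847 at -7.99 and chr15:15794795-15803518 at -7.99. In IVF blastocysts chr11:5396001-5404270 had 13.4, 60.9 and 17.0 normalised reads against 2406, 3994 and 3192 in oocytes (-6.96, SE 1.42; limma adjusted p = 7.2e-06), followed by chr17:36873770-36881014 at -6.82 and chr16:74471291-74492916 at -6.80. No blastocyst value of these members reached an oocyte value.

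Within the pool 55 of the 84 members were lower in NT blastocysts than in oocytes and 58 in IVF blastocysts, called or not. Of all 372 clusters, 241 were lower in NT and 234 in IVF blastocysts, so this tilt was shared by the other clusters. NT blastocysts had 10 clusters called lower and 1 higher than oocytes, against 19.9% of all clusters called, and IVF blastocysts had 4 lower and none higher, against 12.1%. The leading NT member was chr15:15794795-15803518, with 0, 104, 0 and 0 RPM in NT blastocysts against 242, 220 and 241 in oocytes (log2 difference -3.73; limma adjusted p = 0.00585). The zeros stand on 43786, 107027 and 44895 piRNA reads. Next were chr16:74471291-74492916 at -3.64 and chr16:41319060-41324847 at -3.25. The call of chr16:41319060-41324847 was lost without oocyte 1 (-2.97) or NT blastocyst 4 (-2.38). Leaving out any of the 3 oocytes left 6 calls among the 84. The share of all clusters called in those fits is not given here.

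In IVF blastocysts the leading member was chr15:51376056-51384960. It had 0 reads in all 3 IVF blastocysts, against 26, 23 and 24 reads in oocytes, which are 70.6, 49.6 and 54.6 RPM (log2 difference -2.76, SE 0.52; limma adjusted p = 0.000832). By counting error alone a count of 0 allows up to 3 reads per library, and single reads of a row may also be listed as 0. In NT blastocysts the same cluster had 0, 0, 2 and 0 reads. The others called were chr17:36873770-36881014 (-2.60), chr21:3105386-3112983 (-2.52) and chr12:65516725-65524793, all with fewer than 10 reads in each IVF blastocyst. Leaving out single oocyte or IVF blastocyst libraries left 1 to 4 calls: 1 without oocyte 1, oocyte 4 or IVF blastocyst 3, and 2 without oocyte 3 or IVF blastocyst 2. For these fits, too, the share of all clusters called is not given, so the counts show only the dependence on single libraries.

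The number called here depends strongly on IVF morulae 1 and 3, which are in neither group but raise the common spread. Without them NT blastocysts had 12 members higher and 37 lower than oocytes (48.1% of all clusters called) and IVF blastocysts 10 higher and 26 lower (40.3%). The differences themselves did not move. All 11 NT and all 4 IVF calls made with these libraries were among those made without them. Among the additional ones was chr2:79172175-79177946, at -1.66 in NT (limma adjusted p = 3.9e-08) and -1.25 in IVF blastocysts (limma adjusted p = 1.4e-05), where the fit of all libraries had given limma adjusted p = 0.448 and limma adjusted p = 0.689.

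**Figure D3:**
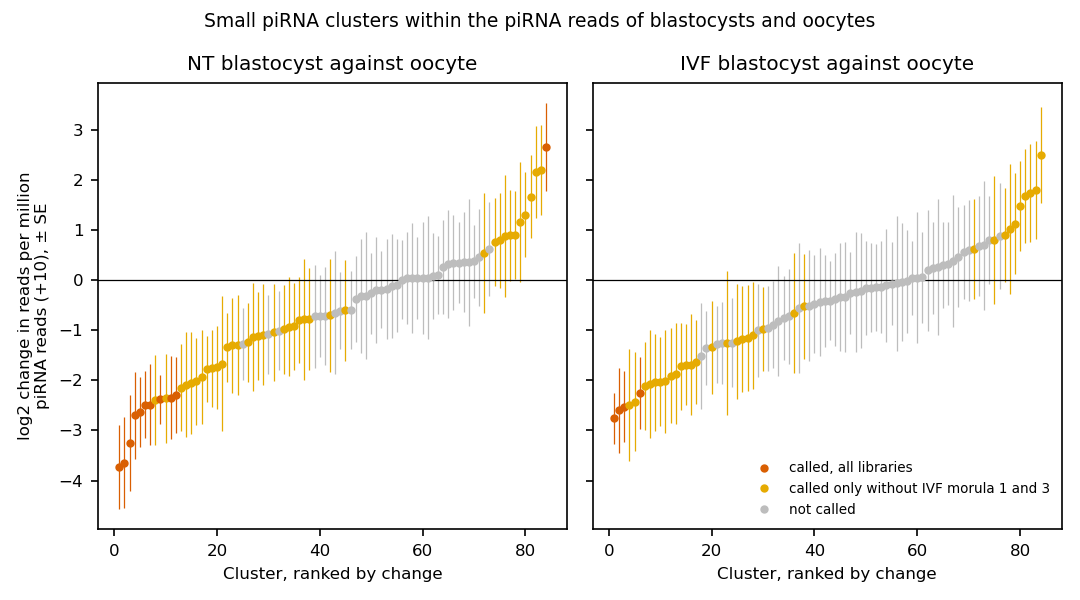
Log2 difference in RPM (+ 10), with SE bars, for each of the 84 clusters ranked by difference, in NT blastocysts (left) and IVF blastocysts (right), each against the same 3 oocyte libraries; colours mark calls with all libraries and calls made only without IVF morulae 1 and 3. The points run from -3.73 to 2.67 in NT and from -2.76 to 2.50 in IVF blastocysts.

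A run of neighbours on chromosome 16 moved up within the pool. The 5 members between chr16:71668130-71675947 and chr16:71817308-71825018 together had 0.539%, 0.456%, 0.558% and 0.644% of the piRNA reads in NT blastocysts and 0.606%, 0.643% and 0.460% in IVF blastocysts, against 0.306%, 0.254% and 0.260% in oocytes. All 7 blastocyst values were above all oocyte values. The run was singled out after its values were seen, and no test is given for its sum.

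Its members did not all move alike. The largest difference was at chr16:71817308-71825018, with 845, 772, 841 and 1270 RPM in NT blastocysts and 876, 1278 and 1244 in IVF blastocysts, against 206, 132 and 248 in oocytes (log2 difference 2.21, SE 0.90, limma adjusted p = 0.0725 in NT; 2.50, SE 0.96, limma adjusted p = 0.0705 in IVF). Neither was called in the fit of all libraries. Both were called without IVF morulae 1 and 3 (limma adjusted p = 7.6e-08 in NT and limma adjusted p = 3.3e-08 in IVF). Its 2 leading rows both carried T16C and named chr3:51892034-51899101 as well. The neighbours chr16:71749118-71766784 (0.89 in NT, 1.03 in IVF) and chr16:71699003-71708019 (1.17 and 0.70) were higher than in oocytes without a call. The other 2 differed little or in the opposite direction: chr16:71769247-71802010 had 0.05 and -0.24, and chr16:71668130-71675947 had -1.73 and -1.24.

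The most private cluster, chr7:82824700-82834833, also had more of the pool in blastocysts. It had 343, 390, 439 and 713 in NT blastocysts and 663, 323 and 622 in IVF blastocysts, against 231, 162 and 146 RPM in oocytes. The differences of 1.32 in NT and 1.49 in IVF were not called (limma adjusted p = 0.295 and limma adjusted p = 0.298), and were called without IVF morulae 1 and 3 (limma adjusted p = 0.000501 and limma adjusted p = 0.000362). The 14 members with more than 50% of reads from 1 locus had a median within-pool difference from oocytes of -0.42 in NT and -0.63 in IVF blastocysts, and the other 70 had -0.67 and -0.33. Reads without a mismatch made up 30.7% ± 2.98 of the members' reads in NT blastocysts (n = 4) and 32.0% ± 1.84 in IVF blastocysts (n = 3), against 38.3% ± 2.68 in oocytes (SD, n = 3). All 7 blastocyst values were below all oocyte values.

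The last comparisons followed the clusters into cells without a germ line pool. At the level scale NT blastocyst-derived cells had 55 of the 84 called lower than NT blastocysts (36.8% of all clusters called), IVF blastocyst-derived cells 66 lower than IVF blastocysts (48.9%), and fibroblasts all 84 lower than oocytes (91.9%). None was called higher. Every row of the table has reads in NT 2-cell replicate 4, so rows found only in fibroblasts or blastocyst-derived cells are not listed. The direction of these calls, and the bounds below, thus depend in part on which rows the table holds. Between NT and IVF blastocyst-derived cells no member was called (0% of all clusters called; 0 with an unadjusted limma p under 0.05; 0 by voom), and most members were at 0 in both.

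For clusters without a read in a group, the floor is the same, so the bound only ranks them by their level in the other group. No fibroblast library had a listed read of chr3:55455007-55462962. Against a floor of 3 reads per library it is at least 16198-fold lower than in oocytes, and for chr2:79172175-79177946 the bound is at least 14215-fold. Next to these, chr10:80949230-80958786 had 0, 2.17 and 0 normalised reads in fibroblasts against 10837, 16259 and 9894 in oocytes (log2 difference -13.00). In IVF blastocyst-derived cells chr10:80949230-80958786 was at least 1057-fold lower than in IVF blastocysts, chr3:55455007-55462962 at least 731-fold and chr15:30091042-30102977 at least 465-fold. In NT blastocyst-derived cells chr10:80949230-80958786 was at least 518-fold and chr3:29111095-29146018 at least 176-fold lower than in NT blastocysts. These bounds cover counting error only and rest on the authors' size factors. The smallest value above 0 was 2 reads in every library, so single reads of a row may be listed as 0. The bounds do not allow for such reads, which could add up over the rows of a cluster. Per 1000000 listed reads the fibroblast bounds are at least 2597-fold and at least 2288-fold lower than in oocytes. On that scale chr10:80949230-80958786 is at least 1043-fold lower in IVF blastocyst-derived cells than in IVF blastocysts and at least 675-fold lower in NT blastocyst-derived cells than in NT blastocysts.

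A few members still had reads in these cells. NT blastocyst-derived cells had reads in 3 to 9 of the 84 clusters, IVF blastocyst-derived cells in 4 to 7 and fibroblasts in 2 to 13. The most abundant there were chr24:43000041-43109013, chr16:74939633-74965012, chr13:70497699-70508824, chr10:100874087-100943920 and chr2:93033110-93043754. Over all 84 clusters together, the mean share of 1-locus reads was high: 78.3% of all member reads in NT and 94.4% in IVF blastocyst-derived cells and 92.5% in fibroblasts, against 15.2% in oocytes. These means rest on few reads, as few as 8 member reads in a fibroblast library. The NT blastocyst-derived libraries ran from 54.5% to 92.8%. Almost all member reads in these cells carried a mismatch. Reads without one averaged 0.851% in NT and 0% in IVF blastocyst-derived cells and 0.593% in fibroblasts.

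The longest cluster, chr24:43000041-43109013, accounted for most of them. It had 19, 0 and 186 reads in NT blastocyst-derived cells, 6, 61, 193 and 153 in IVF blastocyst-derived cells, and 5, 160 and 43 in fibroblasts. Every one of these reads came from a single row, which carries T13A and names no other cluster. The same row gave all reads of the cluster in IVF morula 1 (22 reads) and IVF morula 3 (8 reads). In oocytes it gave 0 of 99, 5 of 127 and 5 of 139 reads. There a different row led, with G11A and other loci named beside it.

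The same cluster was the only member called higher within the pool in NT blastocysts than in oocytes. It had 7719, 1184, 841 and 1581 RPM in NT blastocysts and 814, 981 and 1036 in IVF blastocysts, against 269, 274 and 316 in oocytes (NT minus oocyte 2.67, SE 0.88; limma adjusted p = 0.0294). Leaving out NT blastocyst 1 lowered the difference to 1.99 and ended the call (limma adjusted p = 0.136), and so did leaving out any of the 3 oocytes (adjusted p = 0.0778 to adjusted p = 0.0953). For IVF blastocysts it was 1.68 and not called.

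The T13A row moved with that spread. It gave 312 of 338, 138 of 273, 4 of 90 and 42 of 71 reads of the cluster in NT blastocysts, and 9 of 65, 20 of 76 and 27 of 170 in IVF blastocysts. The other rows of the cluster together had 0.0594%, 0.0586%, 0.0804% and 0.0646% of the piRNA reads in NT blastocysts and 0.0701%, 0.0723% and 0.0872% in IVF blastocysts, against 0.0269%, 0.0263% and 0.0305% in oocytes. Without the T13A row the 4 NT blastocysts lay close together, and all 7 blastocysts were still above all oocytes. The summed level of the fibroblast-associated miRNAs was 3346 to 11487 per 1000000 listed reads in NT blastocysts and 9022 to 14299 in IVF blastocysts. Of these miRNAs, miR-21-5p alone had 3071 to 10998 and 8586 to 13653. The part of that sum in the value of this row was not tested.

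**Figure D4:**
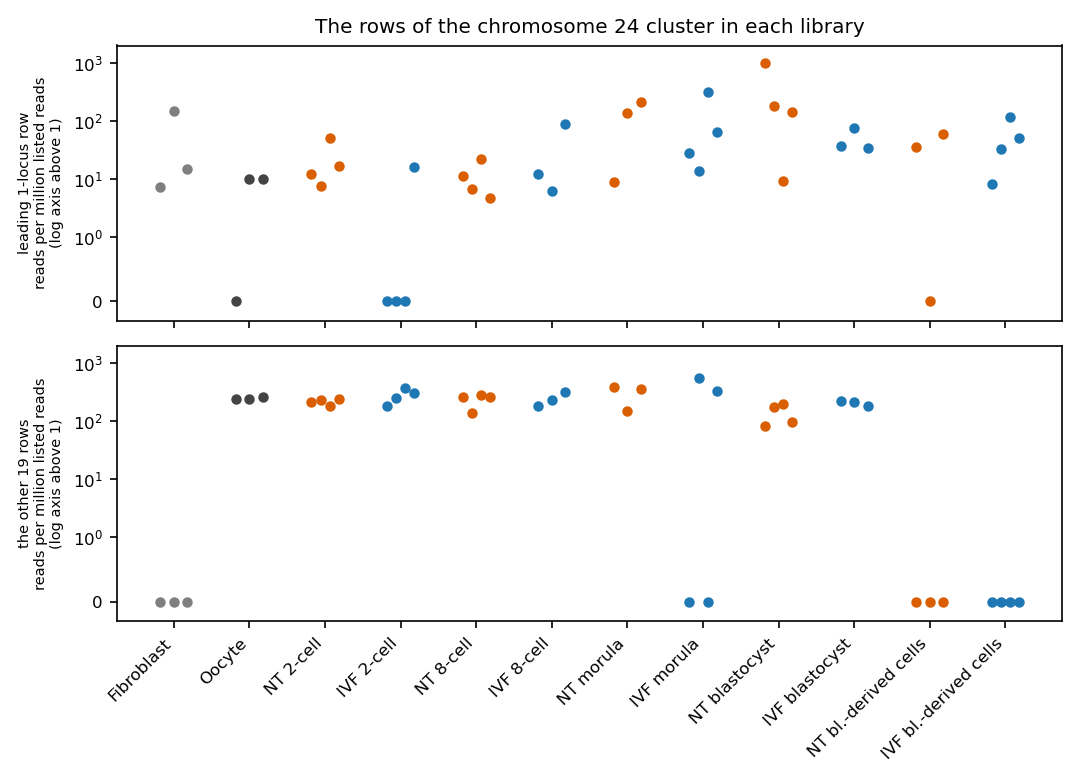
Reads of chr24:43000041-43109013 per 1000000 listed reads (log axis above 1) in every library by group, for the leading 1-locus row (T13A, upper panel) and for the other 19 rows (lower panel). Fibroblasts, blastocyst-derived cells and IVF morulae 1 and 3 are at 0 in the lower panel, and NT blastocyst 1 is the highest point of the upper panel.

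A second cluster of this kind was chr13:70497699-70508824. Its leading rows, with G4A (38.9% of its reads) and G5A (36.0%), named no other locus. It had 0, 5 and 9 reads in NT blastocyst-derived cells, 7, 25, 10 and 10 in IVF blastocyst-derived cells and 3, 7 and 5 in fibroblasts. In blastocysts it had 228, 334, 234 and 646 RPM (NT) and 338, 207 and 232 (IVF), against 89.6, 43.1 and 70.5 in oocytes. The log2 differences from oocytes of 2.17 in NT (SE 0.92; limma adjusted p = 0.0896) and 1.81 in IVF (SE 0.99; limma adjusted p = 0.245) were not called, and were called without IVF morulae 1 and 3 (limma adjusted p = 0.000158 in NT and limma adjusted p = 0.00249 in IVF). It was described with its blastocyst values after these were seen.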

How the data were processed

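The authors' processing, per the submitters' processing notes, used Trim Galore and DESeq2 and names the builds bosTau8 and UMD3.1; no version, aligner or source of the cluster coordinates is given there. The deposited table has 12345 rows and 42 columns of log2 values. Their form, read from the values, is a variance-stabilising transform of reads divided by a size factor per library, in which the lowest value, 1.36754, stands for 0 reads. Per the labels, RNA under 200 nucleotides was sequenced on an Ion Proton, and the number of pools is given as 4 in one place and 3 in another.

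The log2 values were turned back into normalised reads and then into whole reads: 188126 of 188126 values came out whole within 0.01 reads, and the smallest was 2 reads. Every row has reads in NT 2-cell replicate 4. Reads were summed per cluster of the first hit. limma 3.58.1 (R 4.3.3) was fitted on all 12 groups at the level scale and on the 9 oocyte and embryo groups within the pool, with pseudocounts of 1 normalised read and 10 reads per 1000000. On simulated data for NT against IVF 2-cell embryos (372 clusters), the level fit called 77% of 4-fold and 37% of 2-fold changes and the within-pool fit 70% and 34%, with 11.1% of the within-pool calls false. The spread of the simulated data is not given here, so these rates are not the power of the tests above. At the level scale, chr10:80794003-80799021 differed by -2.31 (log2, SE 1.06) in NT against IVF blastocysts and was not called. Intervals and floors (3 reads) cover counting error only, and not single reads of a row that may be listed as 0.

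The clusters and gene lists were chosen with earlier results of these data known. Clusters named are the 10 most abundant in oocytes, up to 3 called clusters per comparison, direction and scale with the largest change, and the 3 most abundant in fibroblasts and in each kind of blastocyst-derived cell; every other cluster described was chosen after its values were seen. Alternatives changed the pseudocount, filter, scaling, test, features, samples in the fit, row assignment and single libraries.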

Additional observations from a re-analysis of the deposited data

Results flagged for a closer look

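The summed share of piRNA reads held by the 84 clusters was 6.74% in IVF 2-cell replicate 3, below the other 3 libraries of that group at 6.93% to 6.94%, a gap that stood out from the group's range.

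The cluster chr23:13852489-13904005, the fourth in the oocyte list, had 0.304% of the piRNA reads in NT 2-cell replicate 3, against 0.444% to 0.461% in the other 3 libraries. The cluster chr16:71749118-71766784 had 0.232% in NT 8-cell replicate 2, above the other 3 at 0.205% to 0.209%. Among 74 groups of 4 libraries examined in this way, 3 stood out, and chance flags about 5% of groups.

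For chr23:13852489-13904005 the difference between NT and IVF embryos changed sign with stage. It was 0.39 (log2 within the pool) at the 8-cell stage, with 3824, 3932, 3786 and 4584 reads per 1000000 piRNA reads (RPM) in NT and 3086, 2786 and 3367 in IVF embryos, and -0.31 at the 2-cell stage, with 4608, 4529, 3037 and 4443 in NT and 5850, 4669, 5072 and 4824 in IVF embryos. All NT libraries lay above all IVF libraries at the 8-cell stage and below them at the 2-cell stage. The difference between the stages was not tested, and neither stage passed its own test.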

How the results depend on the processing

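The 28 changes of named clusters were recomputed 634 times in all: 508 kept their direction and call, 121 kept their direction and lost the call, and 5 reversed. Of the 5, 4 came from leaving out IVF morula replicates 1 and 3: at the level scale in morulae chr3:29111095-29146018 became -0.58, chr16:17125008-17132010 -0.91 and chr15:30091042-30102977 -0.69, and within the pool chr16:17125008-17132010 became -0.17. The fifth was chr21:3105386-3112983 in IVF blastocysts against oocytes within the pool, 0.29 when each row counted for every cluster it names.

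Counts of called members moved as follows. For most of these settings, and for fits without a single library, the share of all clusters called is not given here. The counts then show only how the calls depend on the setting. NT against IVF morulae at the level scale (50) went to 0 with a pseudocount of 10, no filter, the mean of the deposited values, voom, all other rows as features, only the 2 groups, the replicate block, rows with 1 cluster hit, or rows of 1 locus, and to 1 without IVF morulae 1 and 3. Within the pool (37) it went to 1 with a pseudocount of 100, to 2 with rows of 1 cluster hit, and to 0 with no filter, voom, only the 2 groups, the replicate block, rows of 1 locus, or without IVF morulae 1 and 3. NT against IVF 2-cell embryos gave 1 with rows of 1 cluster hit. NT against IVF blastocysts within the pool gave 2 without IVF morulae 1 and 3.

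Against oocytes at the level scale, IVF blastocysts (82) had 47 per 1000000 listed reads, 1 with voom, 14 with rows of 1 cluster hit and 54 with rows of 1 locus; NT blastocysts (83) had 2 with voom and 14 with rows of 1 cluster hit; fibroblasts (84) had 15 with rows of 1 cluster hit. IVF blastocyst-derived cells against blastocysts (66) had 34 with a pseudocount of 10, 0 with the mean of the deposited values, 4 with rows of 1 cluster hit and 24 with rows of 1 locus. For NT (55) these gave 13, 0, 1 and 14, and voom gave 83. voom called 311 of all 372 clusters there, against 137 in the main fit, so that rise was shared by the other clusters. Rows of 1 cluster hit left 16 and rows of 1 locus 59 of the 84 clusters to test.

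Within the pool, IVF blastocysts against oocytes (4) had 17 with a pseudocount of 100, 2 with no filter, 1 with voom, 27 with only the 2 groups, 36 without IVF morulae 1 and 3, 2 with rows of 1 cluster hit and 1 with every cluster named. NT blastocysts (11) had 7 with a pseudocount of 1, 20 with 100, 6 with voom, 25 with only the 2 groups, 49 without IVF morulae 1 and 3, 6 with rows of 1 cluster hit and 2 with every cluster named. The causes were not tested, beyond the fewer clusters left by the stricter row rules.

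Leaving out single libraries gave 0 to 73 (morulae, level), 0 to 68 (morulae, within), 76 to 82 and 1 to 4 (IVF blastocysts against oocytes, level and within), 83 to 84 and 6 to 15 (NT blastocysts), 84 (fibroblasts), 60 to 65 and 45 to 57 (IVF and NT blastocyst-derived cells) and 0 elsewhere. Same-numbered libraries did not deviate together in any comparison as a whole (r from -0.717 to 0.416), so the numbers are not taken to pair them, and the replicate block changed a count by more than 1.5 times only in morulae. The assignments by 1 locus, by first hit without a mismatch and by every cluster named were chosen after seeing the data.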
